A study of Homo sapiens with 6 samples.

Results

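The genes that repair DNA interstrand crosslinks and carry out homologous recombination were examined in NCI-H520 cells treated with cisplatin. The set is a list of 36 genes, taken by symbol from the 61552 genes of the RNA-seq tables, and all 36 were found and had enough counts to be tested. They were ordered by the step at which they act: 11 recognise the crosslink, 8 resect the broken end, 10 carry out or assist strand exchange, and 7 cut or resolve the joined DNA. All are annotated as protein-coding genes on GRCh38.

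NCI-H520, an established line from a human squamous cell carcinoma of the lung, is given in the labels as WT in genotype and as grown in RPMI-1640 with fetal bovine serum. The treated cells received 2 µM cisplatin, a platinum drug that joins the strands of DNA, and were compared with cells that received PBS, the salt solution used as the control, with 48 h of treatment in both groups. Total RNA was sequenced from 3 cisplatin and 3 PBS libraries. Nothing in the labels tells whether replicates came from separate cultures. The p-values hence cover the spread between these libraries alone, which may be technical. All of the libraries come from 1 cell line.

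In the Fanconi anaemia pathway, FANCM recruits a core complex of FANC proteins to a crosslink, and this complex, with the conjugating enzyme UBE2T, attaches ubiquitin to the paired proteins FANCI and FANCD2. Nucleases are then recruited to unhook the crosslink, and the DNA break that results is repaired by homologous recombination: its ends are cut back, a recombinase filament is loaded with the help of BRCA2 and invades the sister DNA, and the joints are cut or dissolved. Cells that lack these genes are known for their sensitivity to cisplatin.

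The promoters of FANCA, FANCG, FANCF, UBE2T and EXO1 are shown because FANCA and FANCG are partners in 1 complex with estimates of opposite sign (the FANCA call was lost in 12 of 19 alternatives), FANCF and EXO1 were lower under cisplatin, and UBE2T was the most abundant transcript of the set per length (in TPM) and was higher. Each window runs 5′ to 3′ from 250 bases before to 50 bases after the RefSeq transcription start (GRCh38.p14), in lower case, with matches to the searched motifs in capitals.
FANCA (chr16:89816598-89816897, minus strand): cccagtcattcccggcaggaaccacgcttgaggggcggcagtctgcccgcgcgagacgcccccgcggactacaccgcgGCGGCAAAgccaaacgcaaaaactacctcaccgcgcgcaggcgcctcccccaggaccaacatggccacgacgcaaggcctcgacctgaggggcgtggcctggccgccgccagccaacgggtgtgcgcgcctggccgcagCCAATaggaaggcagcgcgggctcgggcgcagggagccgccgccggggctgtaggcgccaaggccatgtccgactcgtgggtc
FANCG (chr9:35079893-35080192, minus strand): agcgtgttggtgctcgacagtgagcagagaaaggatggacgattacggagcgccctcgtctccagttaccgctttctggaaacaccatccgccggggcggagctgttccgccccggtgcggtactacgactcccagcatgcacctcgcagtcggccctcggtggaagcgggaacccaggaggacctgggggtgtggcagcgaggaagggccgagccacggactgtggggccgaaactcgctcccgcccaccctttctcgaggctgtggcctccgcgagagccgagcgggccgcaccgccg
FANCF (chr11:22625774-22626073, minus strand): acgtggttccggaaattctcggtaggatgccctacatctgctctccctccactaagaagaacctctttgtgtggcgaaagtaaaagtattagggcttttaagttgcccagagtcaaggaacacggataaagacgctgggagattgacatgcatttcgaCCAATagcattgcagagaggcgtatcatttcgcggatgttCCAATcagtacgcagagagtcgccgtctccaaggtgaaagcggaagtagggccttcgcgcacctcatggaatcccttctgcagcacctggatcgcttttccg
UBE2T (chr1:202341887-202342186, minus strand): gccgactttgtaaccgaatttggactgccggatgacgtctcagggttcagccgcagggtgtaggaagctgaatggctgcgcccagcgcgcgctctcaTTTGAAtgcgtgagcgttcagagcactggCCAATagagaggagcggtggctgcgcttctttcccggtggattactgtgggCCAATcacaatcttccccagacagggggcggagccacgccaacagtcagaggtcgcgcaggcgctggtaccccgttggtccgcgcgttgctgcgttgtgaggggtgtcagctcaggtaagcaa
EXO1 (chr1:241847954-241848253, plus strand): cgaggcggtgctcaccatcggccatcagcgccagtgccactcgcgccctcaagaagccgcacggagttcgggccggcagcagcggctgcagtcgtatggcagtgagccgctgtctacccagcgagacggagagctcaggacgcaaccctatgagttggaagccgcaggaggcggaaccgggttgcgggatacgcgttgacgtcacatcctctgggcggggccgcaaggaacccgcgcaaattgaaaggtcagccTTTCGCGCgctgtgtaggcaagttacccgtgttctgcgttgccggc

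The motifs were searched on both strands and chosen after the data were seen: the words TTTCCCGC, TTTGGCGC, TTTCGCGC and TTTGCCGC, which match sites known to bind E2F factors, the CCAAT box, and TTTGAA, the core of the cell cycle homology region of many genes of late cell cycle. FANCA holds an E2F word on its reverse strand, 8 bases from position -172 relative to the start (0), and a CCAAT box at -33. FANCF holds CCAAT boxes at -92 and -52. UBE2T holds CCAAT boxes at -124 and -73 and the TTTGAA word at -153. EXO1 holds an E2F word at position 4 of its first window, and FANCG holds none of these letters. RefSeq gave 44 windows for 33 of the 36 genes. An E2F word was found in 6 of the 44 windows (13.6%), against 3.32% of 35116 windows of all genes of the same length, in EXO1, FANCA, FANCC, FANCD2, RMI1 and XRCC2. CCAAT was found in 34.1% of the set's windows against 34.6% of all windows, and TTTGAA in 6.82% against 15.2%. The median GC content was 64.3% in the set's windows and 57.5% in all windows, and such matches describe the letters only.

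Library depth ran from 9925328 to 16724285 counts under cisplatin and from 9121180 to 15589897 counts under PBS, and the 36 genes took 0.189% to 0.196% and 0.192% to 0.200% of these counts. The first principal component, with 58.9% of the variance, separated the groups, and the second (12.9%) set PBS replicate 2 apart from the other libraries of its group. Mitochondrial genes took 3.26%, 3.56% and 4.13% of the counts under cisplatin and 4.76%, 6.05% and 4.15% under PBS, lower in every cisplatin library, and the part of this difference in the changes below was not tested. The epithelial markers EPCAM, KRT8, KRT18 and KRT19 averaged 438, 1170, 629 and 561 CPM (counts scaled to library size) under cisplatin and 477, 896, 518 and 450 CPM under PBS. CDH1 was at a lower level, with 24.15 CPM under cisplatin and 15.12 CPM under PBS. CDH1, KRT8, KRT18 and KRT19 were called higher (edgeR adjusted p = 0.00134, 0.00198, 0.0117 and 0.00799), and EPCAM was not called (0.194). The squamous markers were mixed. SOX2, a transcription factor of squamous lung carcinoma, averaged 323 CPM under cisplatin and 309 CPM under PBS. The keratins KRT5 and KRT6A were low, at 4.72 and 2.17 CPM under cisplatin against 5.42 and 1.82 CPM under PBS. TP63 and KRT14 were near absent, with 1, 2 and 2 counts of TP63 under cisplatin and 0, 3 and 1 counts under PBS, and 2, 3 and 5 counts of KRT14 against 0, 0 and 1. None of the 6 fibroblast and 4 endothelial markers had enough counts to be tested (at most 12 and 9 counts in a library), and COL3A1, PTPRC and CD3E were at 0 in every library. Of the 6 immune markers, LYZ and CD14 could be tested, with 3.64 and 0.515 CPM under cisplatin against 0.968 and 1.06 CPM under PBS.

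Under cisplatin, 12 of the 36 genes changed: FANCG, UBE2T, EME1 and RMI2 rose, and FANCA, FANCF, NBN, RBBP8, EXO1, XRCC3, FAN1 and SLX4 fell (edgeR quasi-likelihood test, Benjamini-Hochberg adjusted p under 0.05 over all 15063 tested genes). The share called, 33.3%, was below that of all tested genes, of which 38.2% were called, 18.9% higher and 19.3% lower. The changes were small. The median log2 fold change of the 36 genes was -0.14 (quartiles -0.25 and 0.04), against 0.00 (quartiles -0.26 and 0.28) for all tested genes, and 25 of the 36 (69.4%) lay below 0, against 50.01% of all genes. None of the 36 passed a test against a 1.5-fold change, which 481 of all genes passed. The groups did not overlap for 18 of the 36 genes, while 49.7% of all tested genes did not overlap. Both shares, taken in either direction, were thus near those of all genes. Of the 18 genes, 5 were higher and 13 lower, and the split of all tested genes by direction was not counted. The 8 lower genes became 5 when cisplatin replicate 2 or cisplatin replicate 3 was left out, and 5 with DESeq2. Because these are bulk libraries, fewer cells that transcribe a gene and less of its RNA per cell cannot be told apart.

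**Figure D1:**
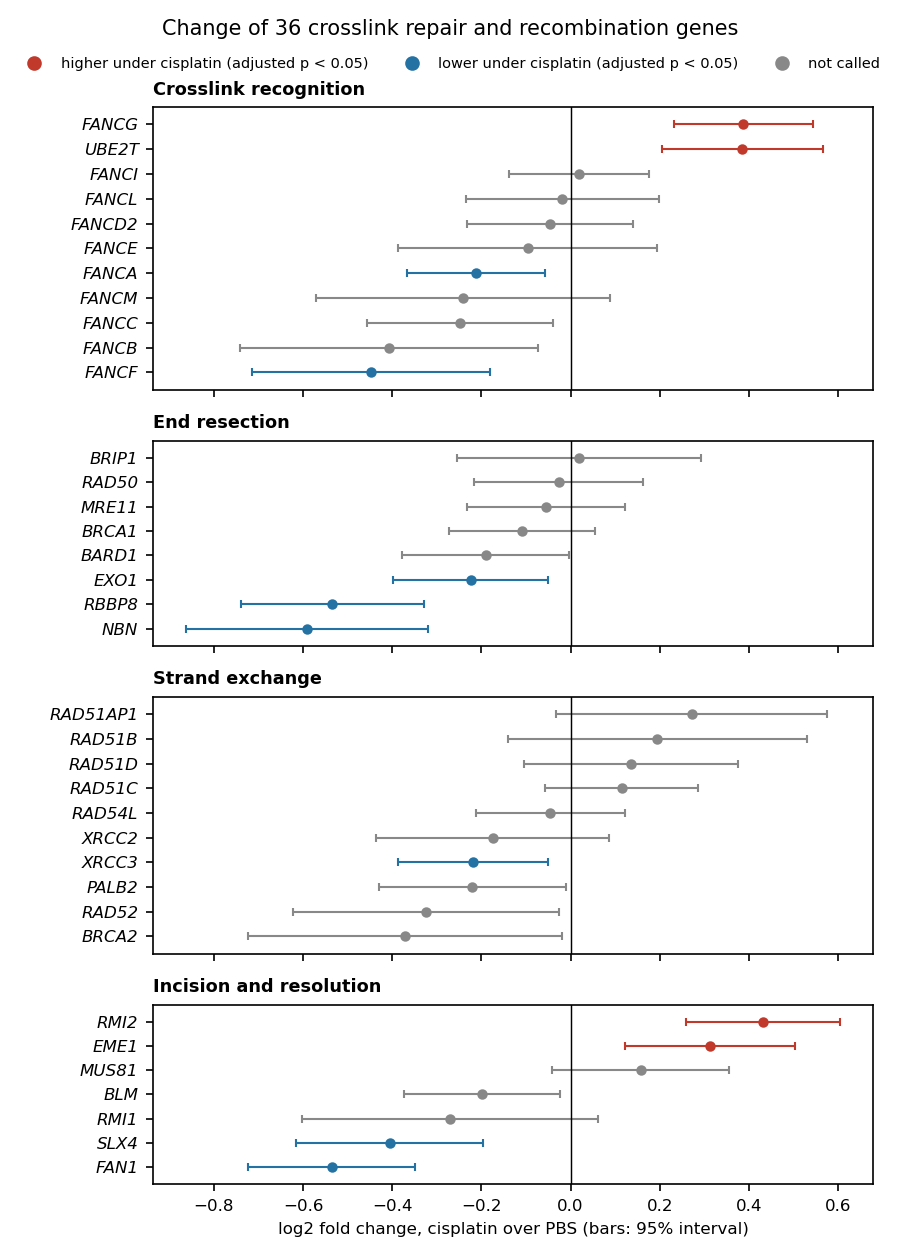
Log2 fold change of each of the 36 genes (cisplatin over PBS, x axis), by step, with points for the edgeR estimate and bars for the 95% interval. Red points are the 4 genes that were higher, blue points the 8 that were lower and grey points the 24 that were not called, and the estimates run from -0.59 (NBN) to 0.43 (RMI2).

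Among the 11 genes of crosslink recognition, FANCG and UBE2T rose, FANCA and FANCF fell, and 7 were not called. The share called, 36.4%, was near the 38.2% of all tested genes. FANCG (chr9:35073835-35080016, minus strand) is a scaffold of the core complex that binds FANCA. It had 129, 133 and 123 CPM under cisplatin and 100, 93.5 and 100 CPM under PBS, so that every cisplatin library lay above every PBS library. Its mean was 128 ± 4.81 CPM against 97.9 ± 3.87 CPM (SD, n = 3 each), a 1.31-fold difference with a 95% interval of 1.17 to 1.46 (edgeR log2 fold change 0.39 ± 0.07 SE, adjusted p = 0.0014). FANCA (chr16:89737549-89816657, minus strand), its partner, had 76.9, 76.6 and 73.8 CPM under cisplatin and 89.2, 84.8 and 89.5 CPM under PBS. FANCA was thus lower in all cisplatin libraries, with a change of -0.21 ± 0.07 (SE) on the log2 scale (edgeR adjusted p = 0.0334). The FANCA call did not survive the loss of any library other than PBS replicate 2: the edgeR adjusted p was 0.0797 and 0.0692 without PBS replicates 1 and 3, and 0.0923, 0.0948 and 0.117 without cisplatin replicates 1, 2 and 3, in a range of 0.0101 to 1 over all 19 alternatives. FANCA also shares 23.6% of its exonic bases with ZNF276 on the opposite strand, which was lower too (log2 fold change -0.32, edgeR adjusted p = 0.00529). Within the shared bases, reads of the 2 genes may not be told apart, because no source used here states how strand was handled. FAAP20, the third protein of this part of the core complex, was not called (0.08).

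FANCF (chr11:22622890-22625841, minus strand), the adaptor that joins parts of the core complex, had 15.6, 11.6 and 13.2 CPM under cisplatin and 18.8, 17.6 and 18.6 CPM under PBS. The groups did not overlap, with means of 13.4 ± 2.00 CPM against 18.3 ± 0.640 CPM (SD, n = 3 each). The change was -0.45 ± 0.12 (SE) on the log2 scale (edgeR adjusted p = 0.0129). Without cisplatin replicate 2, the lowest library, it was -0.35 and not called (edgeR adjusted p = 0.0615; 0.00703 to 1 over all 19 alternatives). Its direct partners FANCC and FANCE had log2 fold changes of -0.25 and -0.10 (edgeR adjusted p = 0.0595 and 0.599), neither of them called. FANCC was called lower when either PBS replicate 2 or cisplatin replicate 1 was left out (edgeR adjusted p = 0.035 and 0.0488; 0.035 to 1 over 19 alternatives).

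UBE2T (chr1:202331657-202341980, minus strand), the enzyme that passes ubiquitin to FANCI and FANCD2, had 148, 146 and 135 CPM under cisplatin and 106, 121 and 101 CPM under PBS. All cisplatin libraries were above all PBS libraries. The means were 143 ± 6.79 CPM and 109 ± 10.4 CPM (SD, n = 3 each), which is a 1.31-fold difference (95% interval 1.15 to 1.48; edgeR log2 fold change 0.38 ± 0.08 SE, adjusted p = 0.00349). UBE2T also has the shortest transcripts of the set (882 bases), and after a correction for transcript length described below its change was 0.16 and not called (edgeR adjusted p = 0.132; 1.1e-04 to 1 over 19 alternatives). FANCL, the ligase that works with UBE2T, averaged 53.6 ± 1.30 CPM against 54.2 ± 7.71 CPM (SD, n = 3 each) and was not called. Its log2 fold change of -0.02 turned to 0.12 without PBS replicate 2.

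The substrates of this reaction did not pass the test. FANCI had 232, 213 and 215 CPM under cisplatin and 218, 207 and 228 CPM under PBS, the highest counts of the set, with overlapping groups. FANCD2 had 150, 146 and 132 CPM under cisplatin against 148, 133 and 160 CPM under PBS, again with overlap. The 95% interval of the fold change was 0.909 to 1.13 for FANCI and 0.852 to 1.10 for FANCD2, so changes beyond these bounds lay outside the intervals. FANCB, a core complex scaffold on chromosome X, had 13.5, 16.5 and 14.3 CPM under cisplatin and 19.4, 23.8 and 15.3 CPM under PBS. Its change of -0.41 was just short of the threshold (edgeR adjusted p = 0.0532), and it was called when either PBS replicate 3 (-0.57, edgeR adjusted p = 0.00931) or cisplatin replicate 2 (-0.48, 0.0455) was left out, in a range of 0.00931 to 1 over 19 alternatives. FANCM, the motor protein that finds the crosslink, had a log2 fold change of -0.24 and overlapping groups (edgeR adjusted p = 0.231), and a value of -0.02 without PBS replicate 2.

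**Figure D2:**
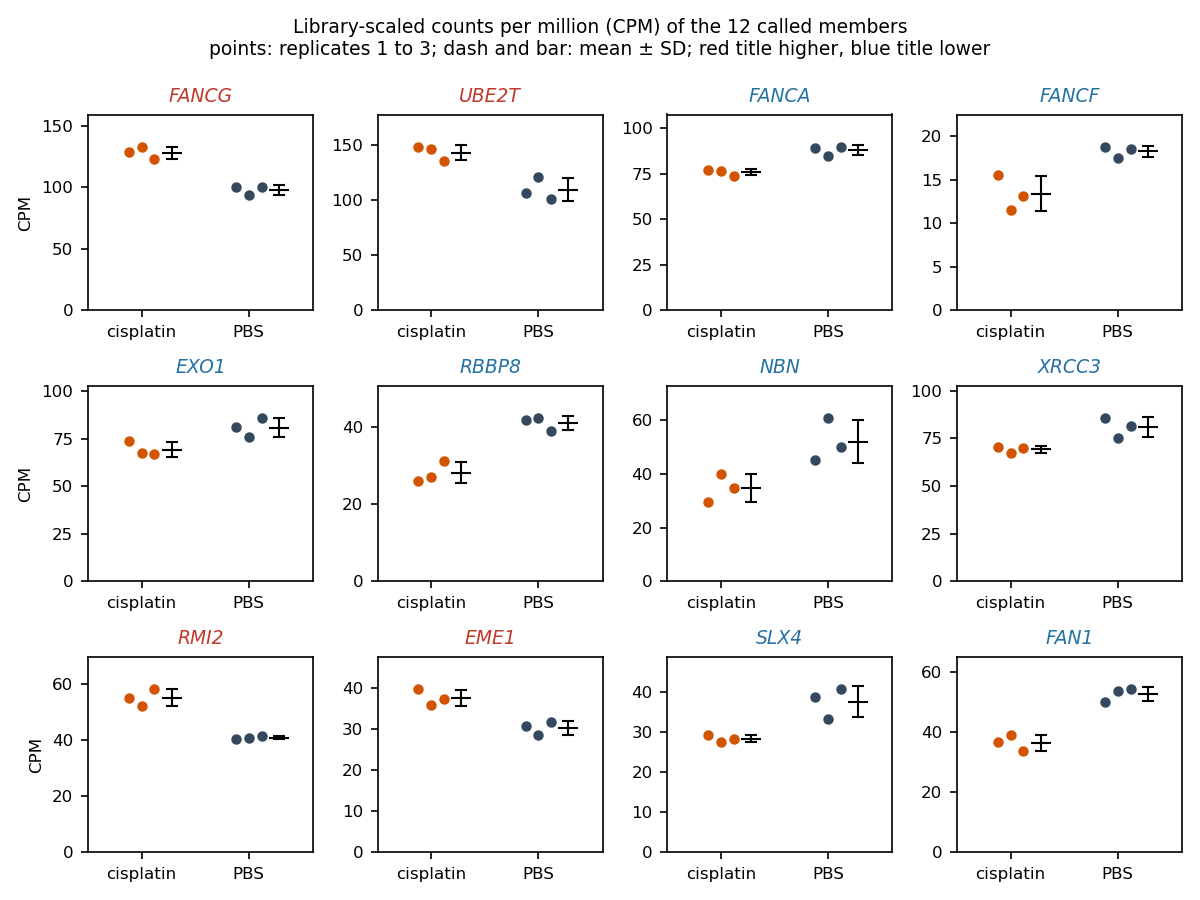
CPM per library (y axis, from 0) of the 12 called genes, with cisplatin at the left and PBS at the right of each panel. Points are the 3 libraries of each group, the dash and bar give the mean and SD, and in every panel the groups do not overlap.

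Among the 8 genes of end resection, NBN, RBBP8 and EXO1 fell and 5 were not called. This share of 37.5% called was near the 38.2% of all tested genes. NBN (chr8:89933336-90003228, minus strand) holds the MRE11 and RAD50 nuclease complex at breaks. It had 29.3, 39.7 and 34.6 CPM under cisplatin and 45.2, 60.6 and 49.8 CPM under PBS, with no overlap. The means were 34.5 ± 5.22 CPM and 51.9 ± 7.88 CPM (SD, n = 3 each). This was the largest of the 36 log2 fold changes in size, at -0.59 ± 0.13 (SE), or 0.664-fold with a 95% interval of 0.550 to 0.802 (edgeR adjusted p = 0.00313). The other subunits showed no such change. MRE11, the nuclease, averaged 42.4 ± 1.46 CPM against 44.0 ± 2.14 CPM (log2 fold change -0.06). RAD50, which tethers the ends, averaged 154 ± 11.7 CPM against 157 ± 15.3 CPM (-0.03; SD, n = 3 each), and its sign turned without PBS replicate 2 (0.06) and without cisplatin replicate 1 (0.04).

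RBBP8 (chr18:22798261-23026488, plus strand), also known as CtIP, switches on the nuclease complex to start resection. It had 26.01, 27.08 and 31.12 CPM under cisplatin and 41.7, 42.2 and 38.8 CPM under PBS. The highest cisplatin library stayed below the lowest PBS library, with means of 28.07 ± 2.698 CPM and 40.9 ± 1.85 CPM (SD, n = 3 each). The log2 fold change was -0.53 ± 0.09 (SE; edgeR adjusted p = 0.00105). NBN, RBBP8 and FANCG were the only genes of the set called under all 18 alternatives other than the test against 1.5-fold. EXO1 (chr1:241847967-241895148, plus strand), the exonuclease that extends resection, had 73.6, 67.3 and 66.9 CPM under cisplatin and 81.0, 75.8 and 85.8 CPM under PBS. It was lower in all cisplatin libraries by a small amount (-0.22 ± 0.08 SE, edgeR adjusted p = 0.043). This EXO1 call was lost without PBS replicates 1 and 3 (edgeR adjusted p = 0.0872 and 0.128), and likewise on leaving out any cisplatin replicate (0.0601, 0.149 and 0.141 for replicates 1, 2 and 3; range 0.0248 to 1 over 19 alternatives).

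BRCA1 and BARD1, which form a ubiquitin ligase that promotes resection, were slightly lower without being called. BRCA1 had 58.3, 57.5 and 58.9 CPM under cisplatin and 59.7, 65.2 and 63.0 CPM under PBS (log2 fold change -0.11, edgeR adjusted p = 0.28). BARD1 had 26.6, 27.5 and 27.5 CPM under cisplatin against 32.1, 31.6 and 29.6 CPM under PBS (-0.19, edgeR adjusted p = 0.101). BARD1 was at -0.01 after the correction for length, and was called lower by limma on the TPM scales (-0.47 and -0.52, adjusted p = 0.0456 and 0.043; 0.043 to 1 over 19 alternatives). In each of these genes the groups did not overlap. BRIP1, the helicase that binds BRCA1, had overlapping groups and a log2 fold change of 0.02, which turned to -0.12 without cisplatin replicate 2, to -0.04 without PBS replicate 1 and to -0.03 without PBS replicate 3.

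Among the 10 genes of strand exchange, XRCC3 fell and 9 were not called (10% called, against 38.2% of all tested genes). The calls of this step numbered 0 to 2 over the alternatives. XRCC3 (chr14:103697609-103715504, minus strand), a paralog of the recombinase that acts with RAD51C, had 70.6, 67.2 and 70.2 CPM under cisplatin and 85.7, 75.2 and 81.6 CPM under PBS. The groups did not overlap, with means of 69.3 ± 1.86 CPM and 80.8 ± 5.25 CPM (SD, n = 3 each), and the log2 fold change was -0.22 ± 0.08 (SE; edgeR adjusted p = 0.0409). XRCC3 lost its call without PBS replicates 1 and 3 (edgeR adjusted p = 0.127 and 0.0784), and on leaving out cisplatin replicate 1 (0.101), 2 (0.15) or 3 (0.0883; range 0.0109 to 1 over 19 alternatives). It shares 76.7% of its exonic bases with KLC1 on the opposite strand, whose own log2 fold change was -0.15 (edgeR adjusted p = 0.176), so its counts are uncertain.

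BRCA2, which loads the recombinase, and PALB2, which links BRCA2 to BRCA1, were lower on average without passing the test. BRCA2 had 29.5, 34.1 and 36.6 CPM under cisplatin and 39.8, 56.8 and 33.2 CPM under PBS, with PBS replicate 2 far above the other libraries and PBS replicate 3 within the cisplatin range (log2 fold change -0.37, edgeR adjusted p = 0.0894). Without PBS replicate 3 it was called (-0.54, edgeR adjusted p = 0.0153; 0.00397 to 1 over 19 alternatives). PALB2 had 29.7, 25.1 and 24.9 CPM under cisplatin and 31.3, 31.5 and 29.8 CPM under PBS, which do not overlap (-0.22, edgeR adjusted p = 0.0905). RAD52, an annealing protein, was likewise lower in all cisplatin libraries (7.57, 7.30 and 7.51 CPM, against 9.16, 8.48 and 10.4 CPM under PBS) and not called (-0.32, edgeR adjusted p = 0.0807).

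The recombinase paralogs RAD51B, RAD51C and RAD51D, which form a complex with XRCC2 that assists filament growth, had log2 fold changes of 0.19, 0.12 and 0.14, and XRCC2 one of -0.17, with none called. RAD51C had 40.9, 40.1 and 40.1 CPM under cisplatin and 37.7, 37.8 and 36.3 CPM under PBS, higher in all cisplatin libraries by a margin that missed the threshold (edgeR adjusted p = 0.273). RAD51AP1, which stimulates strand pairing, had 38.9, 55.1 and 45.5 CPM under cisplatin and 34.4, 46.6 and 34.2 CPM under PBS. In both groups replicate 2 was the highest, and the groups overlapped (0.27, edgeR adjusted p = 0.146). RAD51AP1 was called higher without PBS replicate 2 (0.45, edgeR adjusted p = 0.0207) and with no low-count filter (0.28, 0.0357; 0.0207 to 1 over 19 alternatives). RAD54L, a motor protein that drives strand invasion, averaged 81.5 ± 1.35 CPM against 84.3 ± 6.05 CPM (SD, n = 3 each; log2 fold change -0.05, turning to 0.00 without PBS replicate 1).

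Of the 7 genes that cut or resolve the joined DNA, RMI2 and EME1 rose, FAN1 and SLX4 fell, and 3 were not called. Thus 57.1% of this small step was called, against 38.2% of all tested genes, and 2 genes were called with the length correction. FAN1 (chr15:30903852-30943108, plus strand), a nuclease that cuts at crosslinks, had 36.7, 39.0 and 33.8 CPM under cisplatin and 49.9, 53.8 and 54.3 CPM under PBS. The groups were well apart, with means of 36.5 ± 2.63 CPM and 52.7 ± 2.41 CPM (SD, n = 3 each). The log2 fold change was -0.54 ± 0.09 (SE), and its edgeR adjusted p of 5.9e-04 was the smallest of the set. FAN1 shares 24.3% of its exonic bases with MTMR10 on the opposite strand, which was not called and had an estimate of the other sign (0.21, edgeR adjusted p = 0.0912). On the TPM scale FAN1 was not called by limma (-0.34, adjusted p = 0.156; 4.4e-06 to 1 over 19 alternatives).

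SLX4 (chr16:3581181-3611598, minus strand), the scaffold on which several nucleases assemble, had 29.2, 27.4 and 28.4 CPM under cisplatin and 38.8, 33.3 and 40.7 CPM under PBS, with no overlap. The means were 28.3 ± 0.881 CPM and 37.6 ± 3.85 CPM (SD, n = 3 each), and the log2 fold change was -0.41 ± 0.10 (SE; edgeR adjusted p = 0.00608). SLX4 has the second longest transcripts of the set (6568 bases), and after the correction for length its change was -0.12 and not called (edgeR adjusted p = 0.358; 0.00195 to 1 over 19 alternatives). SLX1A, the nuclease that SLX4 activates, was called lower too (-0.39, edgeR adjusted p = 0.0272). Its call was lost on leaving out PBS replicate 2 (edgeR adjusted p = 0.0966) or cisplatin replicates 1 or 2 (0.113 and 0.106), with 8.3e-04 to 1 over 19 alternatives. SLX1A shares 86.0% of its exonic bases with a readthrough transcript, so its counts are uncertain.

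EME1 (chr17:50373220-50381483, plus strand), the partner of the nuclease MUS81, had 39.8, 35.9 and 37.3 CPM under cisplatin and 30.7, 28.5 and 31.7 CPM under PBS. All cisplatin libraries were higher, with means of 37.7 ± 1.95 CPM against 30.3 ± 1.595 CPM (SD, n = 3 each; edgeR log2 fold change 0.31 ± 0.09 SE, adjusted p = 0.0142). Without cisplatin replicate 1, EME1 was not called (0.28, edgeR adjusted p = 0.068; 0.011 to 1 over 19 alternatives). On both TPM scales its change was 0.07 and not called (limma adjusted p = 0.691 and 0.685). EME1 shares 16.4% of its exonic bases with LRRC59 on the opposite strand, which was called lower (-0.25, edgeR adjusted p = 0.039). MUS81 had 49.3, 45.6 and 49.3 CPM under cisplatin and 42.0, 39.5 and 47.9 CPM under PBS, with overlap and no call (0.16, edgeR adjusted p = 0.197). MUS81 shares 13.9% of its exonic bases with CFL1 on the opposite strand, which had a mean of 8858 counts per library. The counts of MUS81 are hence uncertain.

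RMI2 (chr16:11249619-11381662, plus strand), a small subunit of the complex of BLM, TOP3A and RMI1 that dissolves joined DNA, had 55.2, 52.3 and 58.2 CPM under cisplatin and 40.5, 40.9 and 41.5 CPM under PBS. The groups were far apart relative to their spread, with means of 55.2 ± 2.97 CPM and 41.0 ± 0.479 CPM (SD, n = 3 each). This 1.35-fold difference (95% interval 1.196 to 1.521, edgeR log2 fold change 0.43 ± 0.08 SE, adjusted p = 0.00138) was the largest rise of the set in this fit. FANCG rose more than RMI2 on both TPM scales (0.55 on each) and after the correction for length (0.37 against 0.29). RMI2 was not called on the TPM scales (0.33 and 0.34, limma adjusted p = 0.052 and 0.0527). The other subunits of the RMI2 complex had estimates below 0 without being called. BLM, the helicase, had 45.7, 46.5 and 44.0 CPM under cisplatin and 49.8, 55.2 and 51.0 CPM under PBS, which do not overlap (-0.20, edgeR adjusted p = 0.0687). RMI1 had 13.2, 16.0 and 12.4 CPM under cisplatin and 13.0, 19.4 and 17.1 CPM under PBS, which overlap (-0.27, edgeR adjusted p = 0.18). RMI1 was called lower without PBS replicate 1 (-0.40, edgeR adjusted p = 0.0496; 0.0496 to 1 over 19 alternatives) and was at -0.13 without PBS replicate 2. The topoisomerase TOP3A had a change of -0.17 (edgeR adjusted p = 0.15).

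Summed over the step, the genes of crosslink recognition gave 876, 854 and 815 CPM under cisplatin and 814, 812 and 828 CPM under PBS, with overlap. The genes of end resection gave 436, 469 and 457 CPM against 494, 540 and 489 CPM, and so were lower in every cisplatin library. These genes also have the longest transcripts of the 4 steps (median 3848 bases), and after the correction for length their median log2 fold change was -0.02, against -0.15 before it. RBBP8 (-0.53), NBN (-0.44) and EXO1 (-0.19, not called) stayed below 0 after it, and the other 5 genes ran from -0.02 to 0.18. The medians of the other steps after it were -0.11 for recognition (-0.10 before), -0.06 for strand exchange (-0.11 before) and -0.12 for resolution (-0.20 before). Strand exchange genes summed to 355, 359 and 365 CPM against 379, 398 and 361 CPM, and genes of incision and resolution to 269, 263 and 263 CPM against 265, 271 and 284 CPM, both with overlap. Over all 36 genes the sum was 1927 ± 23.7 CPM under cisplatin and 1978 ± 36.8 CPM under PBS (SD, n = 3 each).

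Of 43 further genes of these pathways, 11 rose and 8 fell (44.2% called, by the edgeR test at adjusted p under 0.05, near the 38.2% of all tested genes), and their median log2 fold change was 0.01. The 11 that rose became 6 without PBS replicate 3 and 7 without cisplatin replicate 1. SWI5, which with SFR1 helps load the recombinase, averaged 37.5 ± 1.92 CPM against 22.8 ± 2.55 CPM (SD, n = 3 each), a rise of 0.73 ± 0.10 (SE) on the log2 scale (edgeR adjusted p = 2.3e-04). RECQL5, a helicase that takes the recombinase filament apart, averaged 78.0 ± 1.36 CPM against 55.7 ± 2.04 CPM (0.49, edgeR adjusted p = 4.1e-04). RPA3, the small subunit of the protein that coats single-stranded DNA, rose by 0.51 (edgeR adjusted p = 0.00352). BABAM1, a part of the BRCA1-A complex, rose by 0.37 (edgeR adjusted p = 0.00219). ERCC1, partner of the nuclease ERCC4, rose by 0.35 (edgeR adjusted p = 0.00659), but shares 28.6% of its exonic bases with CD3EAP on the opposite strand, which was lower (-0.77). After the correction for length these rises were smaller, at 0.47 for SWI5, 0.42 for RECQL5, 0.32 for RPA3, 0.21 for BABAM1 and 0.22 for ERCC1, and all 5 were still called (edgeR adjusted p = 0.001, 7.5e-04, 0.0164, 0.0229 and 0.046). On the TPM scales SWI5, RECQL5 and RPA3 were still called. BABAM1 (limma adjusted p = 0.12 and 0.121) and ERCC1 (0.125 and 0.124) were not.

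Of the further genes that fell, MCM9, a helicase subunit of recombination, had the largest change, with 7.17 ± 0.953 CPM against 11.7 ± 1.08 CPM (SD, n = 3 each; -0.72, edgeR adjusted p = 0.00235). Its partner MCM8 fell by 0.29 on the log2 scale (edgeR adjusted p = 0.00744), but was not called after the correction for length (-0.12, edgeR adjusted p = 0.22; 0.00787 to 1 over 19 alternatives). ERCC4, the nuclease also known as XPF, averaged 15.8 ± 1.66 CPM against 23.8 ± 1.27 CPM (-0.59, edgeR adjusted p = 0.00135). DCLRE1A, a nuclease of crosslink repair, averaged 22.4 ± 1.72 CPM against 32.7 ± 1.76 CPM (-0.55, edgeR adjusted p = 9.6e-04), and DNA2, a nuclease that extends resection beside EXO1, averaged 42.6 ± 2.80 CPM against 56.5 ± 7.41 CPM (-0.42, edgeR adjusted p = 0.00726). On the TPM scales ERCC4 and DCLRE1A were still called. MCM9 (limma adjusted p = 0.139 and 0.145), DNA2 (0.164 and 0.165) and MCM8 (0.0619 and 0.0583) were not.

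Of all tested genes, 18.9% were called higher and 19.3% lower by the edgeR test. Unrelated genes put into groups can hence also have opposite calls, and how often they do was not tested. The 36 genes and the further genes were grouped into 14 complexes after the data were seen. In 3 of them partners were called in opposite directions: FANCG rose while FANCA fell, ERCC1 rose while ERCC4 fell, and HROB, which loads the helicase of MCM8 and MCM9, rose (0.37, edgeR adjusted p = 0.0229) while both of these fell. These 3 became 1, that of ERCC1 and ERCC4, on dropping cisplatin replicate 1, cisplatin replicate 2 or PBS replicate 3, and 0 on the TPM scales and against 1.5-fold. The HROB call was lost without PBS replicates 2 and 3 (edgeR adjusted p = 0.0645 and 0.0539) and cisplatin replicates 1 and 2 (0.071 and 0.0673), with 0.0146 to 1 over 19 alternatives. In 3 complexes (RPA, SWI5 with SFR1, and SLX4 with SLX1A) 2 partners were called in the same direction, against 0 with the length correction; in 4 complexes a single gene was called, and in 4 others, FANCI with FANCD2, BRCA1 with BARD1, FANCB with FANCL and FAAP100, and the RAD51B, RAD51C, RAD51D and XRCC2 complex, none was called. In RPA the rise of RPA3 stood beside a smaller one of RPA2 (0.22, edgeR adjusted p = 0.0402) and none in RPA1 (0.05) (edgeR adjusted p = 0.693). The RPA2 call was lost when any library other than cisplatin replicate 3 was left out (edgeR adjusted p = 0.0514 to 0.181; 0.029 to 1 over 19 alternatives). SFR1, with 4.83 ± 0.453 CPM against 3.26 ± 0.226 CPM (SD, n = 3 each), rose with SWI5 (0.58, edgeR adjusted p = 0.0229). It lost its call without PBS replicate 3 (0.0727) or cisplatin replicate 3 (0.104), with the length correction (0.43, edgeR adjusted p = 0.0712), with DESeq2 and on the TPM scales (0.0164 to 1 over 19 alternatives).

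**Figure D3:**
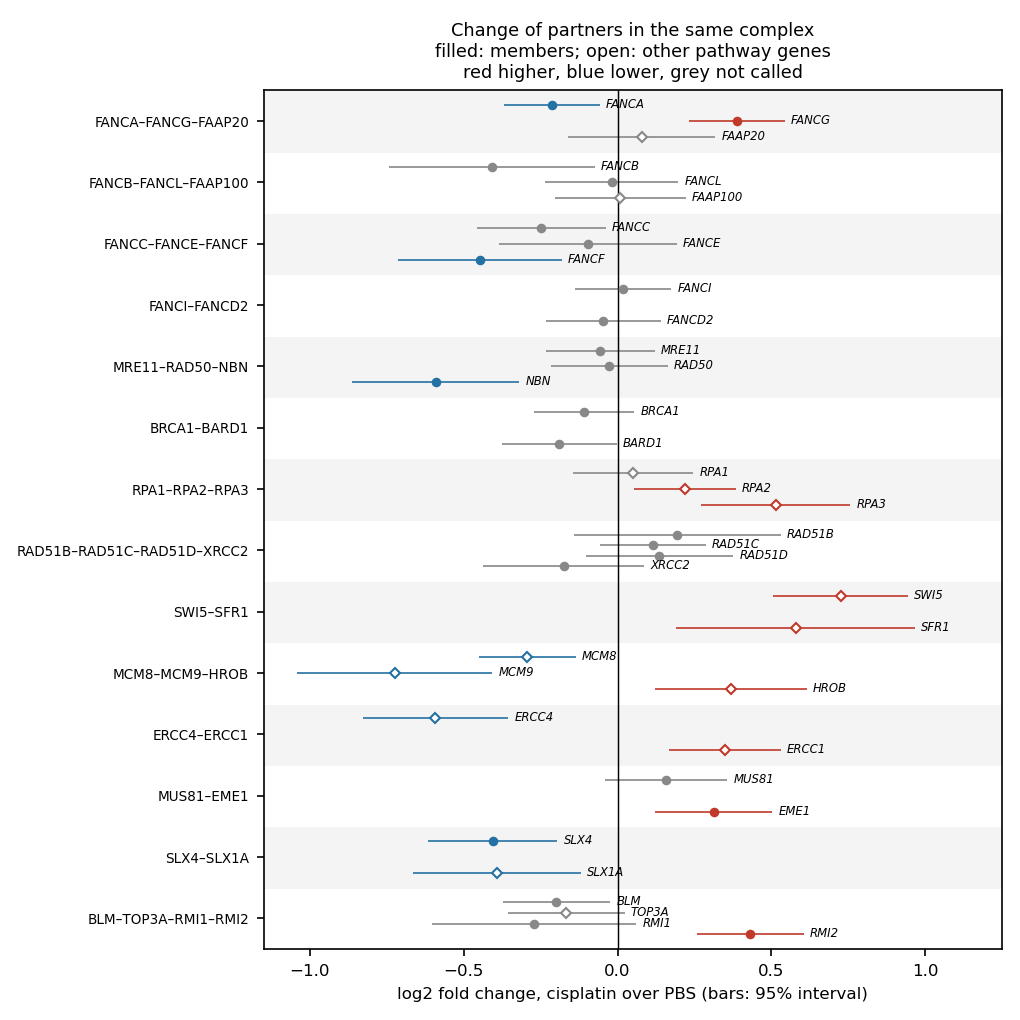
Log2 fold change of the partners of 14 complexes (cisplatin over PBS, x axis), with bars for the 95% interval. Filled points are genes of the set of 36 and open points the further pathway genes, and red and blue points lie on opposite sides of 0 in the rows of FANCA with FANCG, MCM8 and MCM9 with HROB, and ERCC4 with ERCC1.

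The balance of partners was also tested as a ratio of TPM values (scaled for transcript length and library) in 8 pairs. With 3 libraries against 3 an exact two-sided permutation test cannot give a p below 0.1. The ratio of RMI2 to RMI1 was 11.8, 9.11 and 13.1 under cisplatin and 8.99, 5.82 and 6.81 under PBS, so that the groups did not overlap (log2 difference 0.66, exact permutation p = 0.1, adjusted p = 0.533 over the 8 pairs). The ratio of NBN to MRE11 was 0.457, 0.572 and 0.715 under cisplatin and 0.704, 0.857 and 0.803 under PBS, with cisplatin replicate 3 inside the PBS range (-0.46, exact permutation p = 0.2, adjusted p = 0.533), and the difference was -0.30 without cisplatin replicate 1. As ratios of CPM, a scale added after the data were seen, 5 of the 8 pairs had groups that did not overlap, against 1 of 8 as TPM. These were NBN to MRE11 (-0.53), RMI2 to RMI1 (0.67), EME1 to MUS81 (0.15), RAD51D to XRCC2 (0.30) and RAD51C to XRCC3 (0.34), each with an exact permutation p of 0.1 (adjusted p = 0.16). Among all tested genes taken singly, 49.7% had groups that did not overlap in CPM, and ratios of unrelated genes were not tested. NBN, RMI2, EME1 and XRCC3 were also called as single genes. As TPM, FANCI to FANCD2 gave 0.892, 0.997 and 1.15 against 1.09, 1.31 and 1.14, which overlap (exact permutation p = 0.3). No pair passed the threshold after adjustment, which the number of libraries does not allow.

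Levels between genes were compared per length, as TPM. UBE2T was the most abundant transcript, with 284, 277 and 244 TPM under cisplatin and 203, 231 and 228 TPM under PBS, and its lowest library was above every library of the other genes. FANCI, RAD51C and FANCD2 followed with medians of 74.5, 71.5 and 70.4 TPM over the 6 libraries, and their ranges overlapped, so their order is not resolved. RAD51C, the most abundant gene of strand exchange, had 73.4, 70.1 and 74.6 TPM under cisplatin and 64.6, 72.9 and 69.1 TPM under PBS. In incision and resolution, MUS81 had 53.9, 51.4 and 51.1 TPM under cisplatin and 39.8, 37.8 and 56.1 TPM under PBS, close to RMI2 with a median of 49.0 TPM. The MUS81 level is uncertain because of the exonic bases it shares with CFL1. In resection, RAD50 had the highest median, with 33.7, 33.8 and 35.4 TPM under cisplatin and 35.2, 42.5 and 36.5 TPM under PBS, and another gene model on the same strand overlaps 79.7% of its exonic sequence. EXO1, next in that step, ranged from 24.5 to 39.98 TPM and overlapped with it, so their order is not resolved. The lowest medians, 4.62 to 5.27 TPM, belonged to BRCA2, FANCE, RMI1 and SLX4, which overlapped with one another.

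RAD51D and FANCB stood out in 1 library on this scale. RAD51D had 5.90, 6.20 and 5.24 TPM under cisplatin and 4.90, 5.18 and 118 TPM under PBS, the last in PBS replicate 3. The deposited mean length of its transcripts was 384 bases in that library and 3208 to 4136 bases in the others, while its counts there, 16.6 CPM, were within the range of the other libraries (16.3 to 19.9 CPM). FANCB had 22.9 TPM in PBS replicate 3 and 4.47 to 7.19 TPM elsewhere, with a mean length there of 1119 bases. The TPM of these genes in that library therefore moved with the length estimate and not with the counts.

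**Figure D4:**
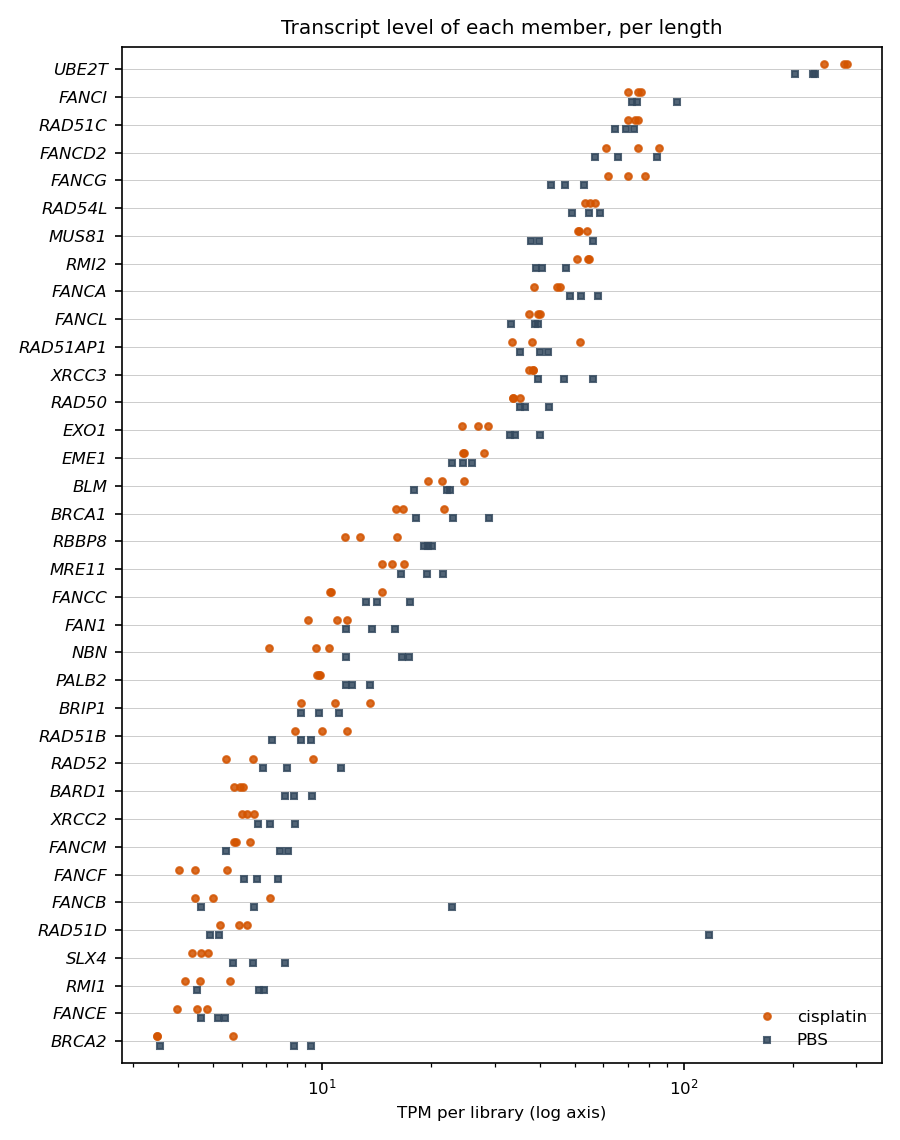
TPM of each of the 36 genes in each library (log axis), ordered by the median over the 6 libraries, with cisplatin as circles above PBS as squares. UBE2T stands alone at the top with 203 to 284 TPM, and the isolated squares of RAD51D (118 TPM) and FANCB (22.9 TPM) are PBS replicate 3.

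Change went with transcript length across all genes. Over the 15063 tested genes, which are not independent replicates, the log2 fold change fell by 0.15 per doubling of transcript length (Spearman rho -0.35, as a description). The median was 0.29 among the 754 shortest genes (median length 622 bases) and -0.35 among the 754 longest (7760 bases). The 36 genes had a median length of 2944 bases, against 2360 bases for all tested genes. UBE2T (882 bases), RMI2 (1400), EME1 (1766) and FANCG (2409), which rose, were shorter than NBN (4184), FAN1 (4202), SLX4 (6568), FANCF (3291), EXO1 (2905) and RBBP8 (2548), which fell, whereas FANCA (2165) and XRCC3 (2210) fell with lengths between those of EME1 and FANCG.

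The length correction set an offset per library from a smooth curve against transcript length. The curve was fitted to the deviation of log CPM in a library from the mean of the gene over all libraries. Such an offset removes any group difference that goes with length, so technical and real changes of this kind cannot be told apart. With this correction, 2 genes were higher and 7 lower. FANCG (0.37, edgeR adjusted p = 9.5e-04) and RMI2 (0.29, 0.0119) stayed higher, while UBE2T and EME1 (0.22, 0.0681) were not called. RBBP8 (-0.53), NBN (-0.44), FAN1 (-0.39), FANCF (-0.38), FANCA (-0.26) and XRCC3 (-0.26) stayed lower, RAD52 was called lower (-0.46, edgeR adjusted p = 0.0231), and SLX4 and EXO1 (-0.19, 0.0635) were not called. BRCA2, whose transcripts are the longest of the set (8365 bases), had a change of -0.02 after the correction.

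**Figure D5:**
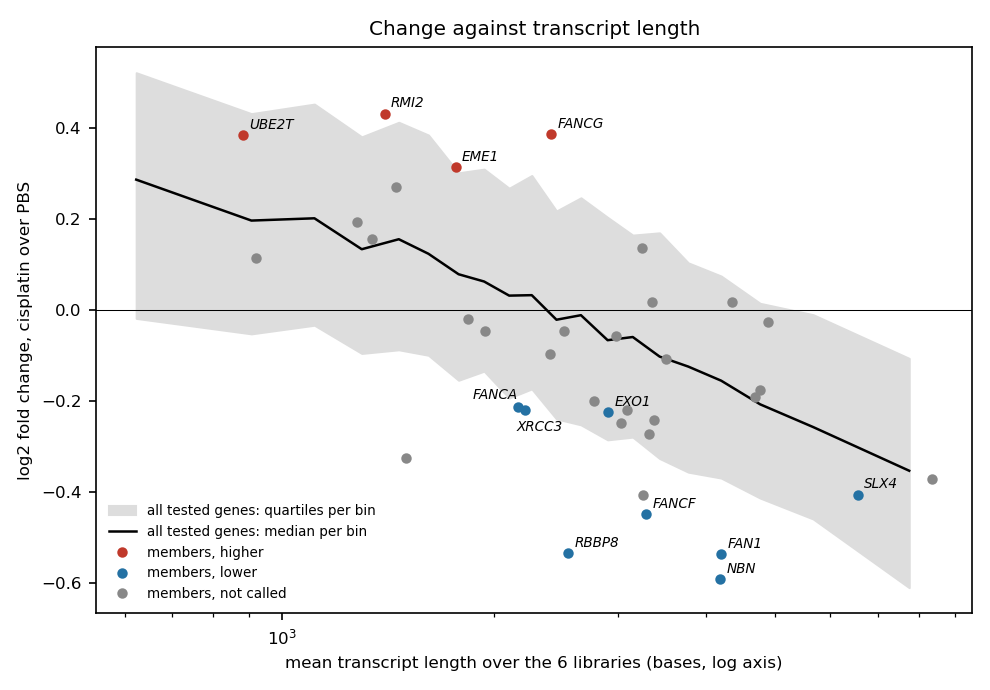
Log2 fold change (cisplatin over PBS, y axis) against mean transcript length (bases, log axis). The line and the grey band are the median and quartiles of all tested genes in bins of length, points are the 36 genes, and FANCG lies above the upper quartile of genes of its length while RBBP8, NBN and FAN1 lie below the lower quartile.

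The deposited mean transcript length per gene, weighted by isoform abundance, was tested as a readout of isoform use. By limma, 0 of the 36 genes and 0 of all tested genes passed adjustment, and 8 of the 36 (22.2%) had an unadjusted p under 0.05, against 10.6% of all tested genes. BARD1 transcripts were longer under cisplatin in these estimates, with 4927, 5281 and 4996 bases against 4334, 4438 and 4146 bases (log2 ratio 0.24, limma adjusted p = 0.217). The other 7, MUS81, RAD54L, FAN1, BRIP1, FANCD2, BLM and FANCL, were shorter. FAN1 had 3805, 3750 and 4038 bases under cisplatin and 4805, 4351 and 4465 bases under PBS (-0.23, limma adjusted p = 0.277), and MUS81 had 1294, 1254 and 1296 bases against 1436, 1416 and 1375 bases (-0.14, limma adjusted p = 0.21). In these genes the groups did not overlap, but no difference passed the test over all genes. Without 1 library, 0 to 7 of all genes passed.

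Lists of cell cycle genes are given beside these results because many repair genes are known to be transcribed with replication. Of 30 genes of G2 and mitosis, 23 rose and 7 were not called by the edgeR test. The share called was 76.7%, against 38.2% of all tested genes. Their median log2 fold change was 0.56, and their summed levels were 8046 to 8430 CPM under cisplatin against 5753 to 6230 CPM under PBS. Of 32 genes of S phase, 1 rose and 11 fell. The share called in either direction, 37.5%, was near the 38.2% of all tested genes. By direction it was not alike: nearly all of these calls were lower, whereas 18.9% of all tested genes were higher and 19.3% lower. The S phase genes had a median of -0.10 and summed levels of 3869 to 4083 CPM against 4218 to 4501 CPM. The part of these differences in the changes of the repair genes was not tested.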

How the data were processed

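RNA-seq of 3 cisplatin and 3 PBS libraries was used, with 1 deposited table per library. The authors deposited expected counts (not normalized), TPM values, which are scaled for transcript length and library, and the mean transcript length per gene in bases, weighted by isoform abundance; column names match those that RSEM writes, per the file headers. Reads were aligned with STAR 2.7.9 to GRCh38 (hg38), per the submitters' processing notes. Strand use, annotation release and poly(A) selection were not given in the sources used here.

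An identifier table gave symbols for 61399 of 61552 genes, and positions and exonic overlaps came from GENCODE 29 (58352 genes matched). After rounding, expected counts went into edgeR 4.0.16 (R 4.3.3): low-count filter filterByExpr (minimum 10, total 15), then TMM scaling, then a quasi-likelihood test for the group. The fit was tested on simulated data. P-values were adjusted by Benjamini-Hochberg over 15063 genes and called under 0.05. CPM are counts scaled to the TMM-adjusted library size. Standard errors were derived from the F statistic, and the 95% intervals include the spread between libraries. Transcript lengths were tested on the log2 scale with limma 3.58.1, and ratios by exact permutation. Libraries of 1 group differed beyond sampling noise (chi-square over its degrees of freedom 2.99 to 20.6), so none was a copy of another.

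The genes, lists and steps were chosen with earlier results of these data known; complexes, motifs and CPM ratios were added after the data were seen. Full statistics were given for the called genes, at most 5 per step, for the most abundant gene of each step, and for at most 5 further pathway genes in each direction. FANCC, FANCB, BRCA1 and other genes of the set that were not called are given by their values, and HROB, SLX1A, SFR1, RPA2, FAAP20 and TOP3A were named after their values were seen, as partners. Alternatives were other scalings (total count, upper quartile, RLE), other filters (none, or 50 counts in 3 libraries), a replicate block, limma-voom, DESeq2 1.42.0, limma on log2(TPM + 1) and log2(TPM + 0.1), an offset for transcript length from a smooth curve (span 0.3), glmTreat against 1.5-fold, and each library left out.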

Additional observations from a re-analysis of the deposited data

How the results depend on the processing

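Over the 36 genes, 684 gene and setting combinations gave 571 results of the same direction and call, 64 lost and 17 gained calls, and 32 changes of sign in 11 genes, none of them called; 17 genes were called nowhere. The genes called higher (4) were 2 with the length offset, 2 with the replicate block and length offset together (added after seeing the data), 0 against 1.5-fold and 1 on each TPM scale, and 3 to 5 without 1 library. The genes called lower (8) were 5 with upper quartile scaling, 5 with total count scaling, 5 with DESeq2, 0 against 1.5-fold, 4 on each TPM scale, and 5 to 9 without 1 library. Further pathway genes called higher (11) were 0 against 1.5-fold, 3 on each TPM scale and 6 to 9 without 1 library. Those called lower (8) were 0, 4 with log2(TPM + 1), 5 with log2(TPM + 0.1), and 6 to 9. All genes called (5752) were 481 against 1.5-fold, 2861 and 2815 on the TPM scales and 4205 to 5283 without 1 library. Transcript lengths called (0) were 0 to 7. The cause of these changes was not tested, except that glmTreat asks for a larger change.

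Same-numbered libraries deviated with correlations of 0.07, 0.12 and -0.08, and libraries of unlike number with -0.19 to 0.13. These few values cannot settle whether the numbers pair the libraries, and the labels do not say. With the replicate block 5 genes were higher, 10 lower and 5819 of all genes called, the added calls being RAD51AP1 higher and FANCB and FANCC lower. The TPM scales moved the median of all genes to -0.07 and -0.09, and that of the 36 genes to -0.24 and -0.26.

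These estimates changed sign. On log2(TPM + 1) and log2(TPM + 0.1), FANCL was 0.07 and 0.07, FANCD2 0.10 and 0.10, FANCI -0.12 and -0.12, RAD51D -1.27 and -1.31, RAD54L 0.03 and 0.03, and BLM 0.07 and 0.07. With the length offset, without and with the block, RAD50 was 0.17 and 0.17, RAD51C -0.11 and -0.11, XRCC2 0.02 and 0.03, and SEM1 -0.02 and -0.02; BRCA2 was 0.02 with both. FANCL was 0.00 with upper quartile scaling. Without 1 library, FANCL ran from -0.08 to 0.12, FANCD2 from -0.11 to 0.02, FANCI from -0.02 to 0.05, RAD50 from -0.10 to 0.06, BRIP1 from -0.12 to 0.14 and RAD54L from -0.09 to 0.00. As CPM ratios, FANCI to FANCD2 was 0.06 (TPM -0.22), EME1 to MUS81 0.15 (TPM -0.18) and RAD51D to XRCC2 0.30 (TPM -1.07). As TPM, RAD51D to XRCC2 ran from -1.91 to 0.46 without 1 library, with 0.46 on leaving out PBS replicate 3.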
